A study of Mus musculus with 14 samples.

Results

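In 54 of the 12393 genes that the array names singly (0.436%), all 4 arrays of hematopoietic stem cells (HSC) from p53 mutant mice lay outside the whole range of the 8 arrays of wild-type (WT) HSC. A gene was taken when every mutant array lay above the highest WT array, or every mutant array below the lowest, by 0.3 or more on the log2 scale, and when the mean on the higher side was at least 6. Each gene was read on the probe set with the largest such gap, and 57 probe sets met the rule. In 16 genes the mutants lay above the WT range and in 38 below it, and with quantile normalization in 20 and 24. The genes were chosen on the difference between mutant and WT arrays, so that difference is described here and not tested.

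The transcription factor p53 is held at low levels by Mdm2 and is stabilised by DNA damage and other stress, after which it drives genes that stop the cell cycle, repair DNA or kill the cell. HSC are rare, mostly resting bone marrow cells that renew themselves and form every blood lineage, and p53 is known to restrain their entry into the cell cycle. They are kept in the marrow in large part by the chemokine CXCL12 acting on its receptor, Cxcr4.

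The study asked how the transcriptome of HSC shifts with age and set beside it HSC of mice with less and with more p53 activity. The WT HSC came from C57Bl/6 male mice of 2, 6, 12 and 21 mo, the mutant HSC from C57Bl/6 male mice of 12 mo that were p53+/- (1 normal copy of the gene, hence less p53) or p53+/m (1 copy replaced by the truncated m allele, reported to give an augmented p53 response). Whole bone marrow (WBM) of WT mice of 2 mo was the remaining group, and each of the 7 groups had 2 arrays, A and B. HSC were sorted by Hoechst efflux as c-Kit+, Sca-1+ and lineage-negative cells, and RNA of 2 to 5 mice was pooled for each HSC array, so that an array is a pool and the spread between the 2 arrays of a group is not that between mice. Both mutants carry their allele in every cell of the body, and WBM is a mixture of all marrow cells. Both mutants are of a single age, and the labels do not say whether they were littermates of the WT mice. According to the methods the mutant mice had at least 4 generations of back-crossing to C57Bl/6, and the WT time course used CD45.1 mice. The labels give no CD45 allele for the mutants, so p53 genotype and strain cannot be told apart where the strains differ.

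The 14 arrays had medians of 3.93 to 4.10. None of 30 bright control probe sets lay outside the WT range in all 4 mutant arrays by the 0.3 of the rule. Probe sets at log2 5 or above made up 42.7% to 43.1% on the mutant arrays and 43.3% to 43.6% on the WT HSC arrays, without overlap. Over 5524 genes with a mean of 6 or more, the median relative to the WT mean was -0.09 to -0.04 in the mutants. It was -0.04 to 0.04 on the WT HSC arrays. The part of this small shift in the counts above and below the range was not tested. A summed set of HSC markers lay at log2 15.4 to 16.0 in WT HSC, at 15.6 to 16.0 in the mutants and at 13.4 to 13.5 in WBM. Of the 11 marker lists, which also covered B, plasma, T, NK and mast cells, neutrophils, monocytes, erythroid cells, megakaryocytes, stroma and MHC class II, none had a summed level outside the WT HSC range in all 4 mutant arrays. The 5′ control for 18S rRNA ranged from 4.66 to 11.2 in WT HSC and from 5.71 to 8.92 in the mutants. The actin 3′ minus 5′ difference, a sign of RNA length, ranged from 3.11 to 6.27 in WT HSC. It was 2.73 and 3.07 in p53+/-, both below the WT range, and 3.56 to 4.07 in p53+/m. The same difference for Gapdh lay within the WT range of 3.06 to 5.42 in both mutants. The 2 WT arrays of 12 mo stood apart from each other more than the arrays of any other group. Over 8012 bright probe sets (a mean of 6 or more on the higher side) their median difference in size was 0.67, against 0.22 to 0.34 in the other HSC groups, and 14 of the 54 genes differed by 1 or more between them. A lower level in bulk RNA may mean fewer cells that hold the transcript or less of it per cell, which cannot be told apart here.

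Of 5524 genes with a bright probe set, 0.29% lay above the WT range by the rule and 0.688% below it. With any gap above 0 the shares were 1.57% and 3.06%, or 87 and 169 genes. The members therefore hold the genes with the widest separation among 256 without overlap. The median difference between the mutant and the WT mean was 1.31 for the 16 genes above the range (0.72 to 2.58) and -1.25 for the 38 below it (-4.73 to -0.72). It was 1 log2 unit or more in 11 and in 32 of them. The genes just inside the limit were Atraid, at a gap of 0.317, Mylk at 0.317 and Mrpl17 at 0.316. Just outside it lay Cnot6l at 0.294, Irf2 at 0.284 and Hnrnpab at 0.281.

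**Figure D1:**
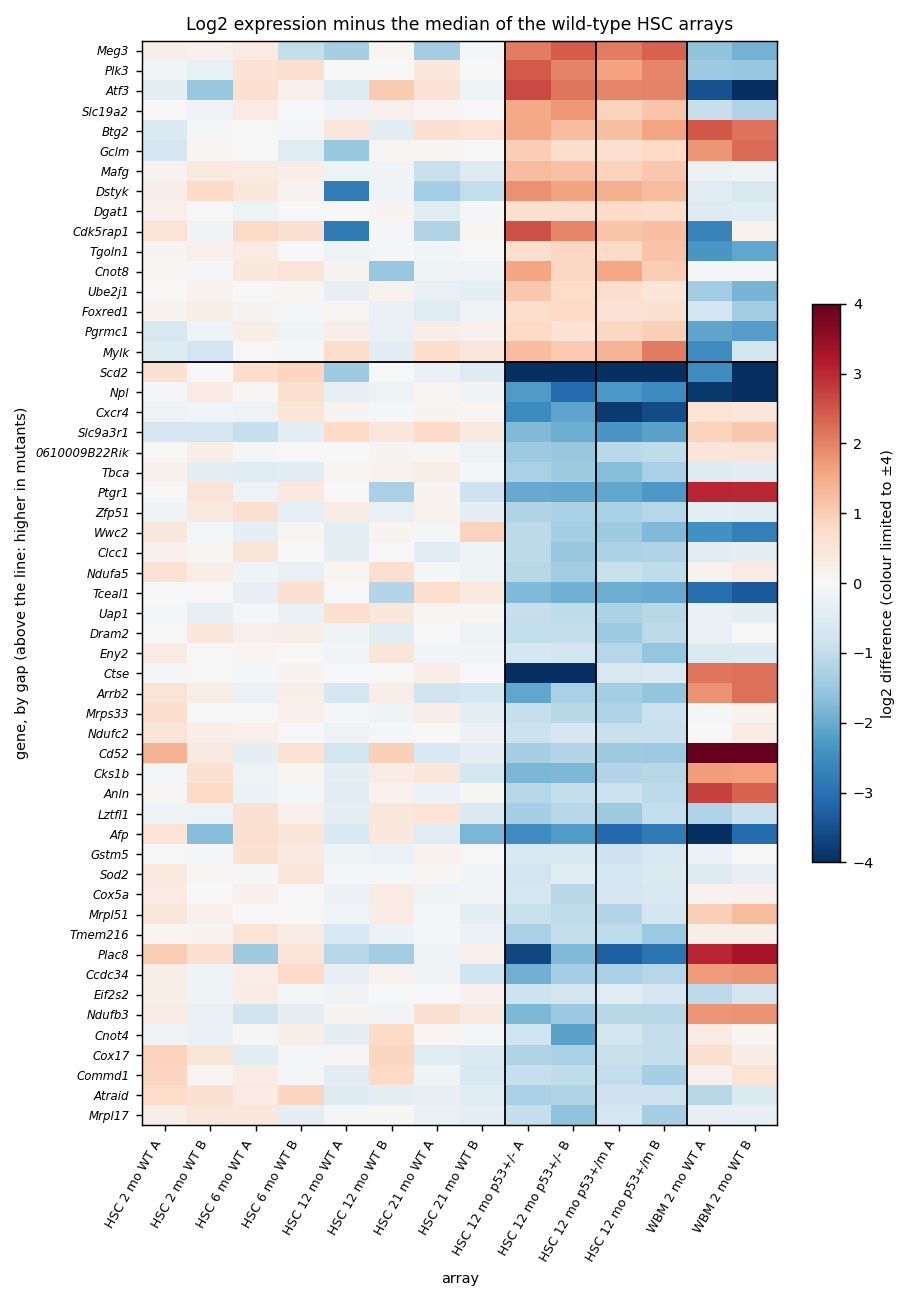
Log2 expression of the 54 genes on each array (columns) minus the gene's median over the 8 WT HSC arrays. Rows above the horizontal line are the 16 genes above the WT range, and rows below it the 38 genes below the range, ordered by gap; the 4 mutant columns hold one colour on each side of the line, whereas the WBM columns are mixed.

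Promoters are shown for the members of the p53 target list, Plk3, Atf3 and Btg2, and for Cxcr4, the chemokine receptor among the 3 largest differences downward. Each window runs from 250 bases before to 50 bases after the RefSeq transcription start (GRCm38.p6) and is given 5′ to 3′ on the minus strand, which is the coding strand of all 4 genes. Capitals mark the CCAAT box, the GC box GGGCGG and the motif TGACGTC on either strand, including where matches overlap each other.
Plk3 (chr4:117133914-117134213): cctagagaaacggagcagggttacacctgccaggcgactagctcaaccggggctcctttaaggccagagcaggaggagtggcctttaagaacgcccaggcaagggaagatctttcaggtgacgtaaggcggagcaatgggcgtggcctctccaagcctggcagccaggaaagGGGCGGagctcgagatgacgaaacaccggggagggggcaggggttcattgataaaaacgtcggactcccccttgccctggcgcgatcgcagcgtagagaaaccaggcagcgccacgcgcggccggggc
Atf3 (chr1:191183284-191183583): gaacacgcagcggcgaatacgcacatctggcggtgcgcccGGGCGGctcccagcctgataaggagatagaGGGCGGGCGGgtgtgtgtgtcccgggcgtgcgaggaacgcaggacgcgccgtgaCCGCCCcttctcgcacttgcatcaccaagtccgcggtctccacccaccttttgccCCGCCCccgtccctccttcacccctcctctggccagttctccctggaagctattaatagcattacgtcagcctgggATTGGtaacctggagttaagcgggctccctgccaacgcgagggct
Btg2 (chr1:134079106-134079405): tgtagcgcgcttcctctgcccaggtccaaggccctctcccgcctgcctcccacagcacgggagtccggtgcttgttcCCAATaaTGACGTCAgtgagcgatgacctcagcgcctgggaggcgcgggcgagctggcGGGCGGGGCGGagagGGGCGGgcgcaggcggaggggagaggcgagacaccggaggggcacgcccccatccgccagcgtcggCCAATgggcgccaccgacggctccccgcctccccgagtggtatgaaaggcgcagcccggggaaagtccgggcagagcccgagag
Cxcr4 (chr1:128592250-128592549): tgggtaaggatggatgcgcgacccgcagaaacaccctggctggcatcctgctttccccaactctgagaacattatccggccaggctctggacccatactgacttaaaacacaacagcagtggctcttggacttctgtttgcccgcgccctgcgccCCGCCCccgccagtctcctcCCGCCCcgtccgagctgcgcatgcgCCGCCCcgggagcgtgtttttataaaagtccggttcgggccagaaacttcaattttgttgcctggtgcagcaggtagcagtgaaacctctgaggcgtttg

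Btg2 holds TGACGTC, the core of a cyclic AMP response element, on both strands at 1 overlapping place, followed by 3 matches to GGGCGG. Promoter windows were found for 15 of the 16 genes above the range and 30 of the 38 below it. TGACGTC on either strand was in 4 of the 15 (Btg2, Mafg, Meg3 and Ube2j1) and in 1 of the 30 (Ndufa5), beside 7.10% of 4591 bright genes. GGGCGG, which can overlap itself, was in 10 of 15 and 23 of 30 windows, beside 72.7%. The p53 half-site was in 0 of 15 and in 1 of 30 (0610009B22Rik), beside 7.73%. The other motifs searched were TATAAA (1 of 15 and 4 of 30, beside 8.47%) and CCAAT (7 and 11, beside 42.6%). CACGTG (1 and 5, beside 13.0%) and TGACTCA (1 and 3, beside 4.42%) were searched as well. TGACGTC is thus singled out from several motifs. The TATAAA of the Cxcr4 window is not marked above. No match says only that these letters are not in the window.

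Among the genes above the WT range were stress-inducible regulators. Plk3, a polo-like kinase of stress and damage signalling, lay at log2 5.06 to 6.01 on the 8 WT HSC arrays (median 5.36), at 7.81 and 7.36 in p53+/- and at 6.97 and 7.32 in p53+/m. Atf3, a basic leucine zipper factor induced by many stresses, lay at 6.87 to 9.43 in WT (median 8.39), at 11.03 and 10.54 in p53+/- and at 10.35 and 10.36 in p53+/m. The mutant means were 3.60-fold and 4.61-fold the WT means, and the lowest mutant array was 0.95 and 0.91 log2 units above the highest WT array. Btg2, an antiproliferative gene known as a p53 target, lay at 7.96 to 9.11 in WT (median 8.51), at 10.07 and 9.76 in p53+/- and at 9.70 and 10.10 in p53+/m, or 2.51-fold. The highest WT arrays for Btg2 were those of 21 mo, and for Atf3 array 12 mo B. In WBM the same 3 genes were not alike, with means of 3.89 for Plk3, 4.09 for Atf3 and 10.83 for Btg2.

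The widest separation upward was that of Meg3, the maternally expressed noncoding RNA of an imprinted cluster. It lay at 5.25 to 6.95 in WT (median 6.63), at 8.68 and 9.05 in p53+/- and at 8.66 and 8.99 in p53+/m. The mutants thus lay at nearly equal levels, 5.97-fold the WT mean, and the WT arrays spread over 1.70 log2 units below them. 2 more Meg3 probe sets were higher in the mutants by 1.34 and 1.83 and had no array in common with WT.

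The other genes above the range serve varied functions. Gclm, the modifier subunit of the enzyme that starts glutathione synthesis, was 2.13-fold higher, with mutant arrays up to 9.92 and WT arrays at 7.44 to 9.03. Mafg, a small Maf factor that pairs with NF-E2 family members such as Nrf2, was 2.28-fold higher (9.64 to 9.98 against 7.83 to 9.10). Slc19a2, a thiamine transporter, was 2.44-fold higher, with mutants at 7.55 to 8.35 and the WT arrays tightly between 6.46 and 6.95. Dgat1, which makes triglyceride, was 1.67-fold higher and Pgrmc1, a heme-binding membrane protein, 1.78-fold. Cnot8, a deadenylase of the CCR4-NOT complex, was 2.54-fold higher, Ube2j1, a ubiquitin-conjugating enzyme of the endoplasmic reticulum, 1.78-fold, Tgoln1, a trans-Golgi protein, 1.78-fold, Foxred1, an assembly factor of respiratory complex I, 1.65-fold, and Mylk, myosin light chain kinase, 2.64-fold. On a brighter probe set Mylk differed by only 0.28 log2 units and overlapped WT. A less bright Tgoln1 probe set differed by 0.10, with overlap.

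For the last 2 genes above the range, the kinase Dstyk and Cdk5rap1, which modifies transfer RNA, 1 WT array stood apart from the rest. Array 12 mo A lay at 5.11 for Dstyk and 4.46 for Cdk5rap1, far below the other WT arrays, whose highest values were 8.72 and 8.05. The gap that made them members is read from the highest WT array and is 0.47 and 0.37, and the mean differences of 1.99 each were 1.66 and 1.63 without that array. On a second Dstyk probe set the difference was 0.86, with overlap.

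**Figure D2:**
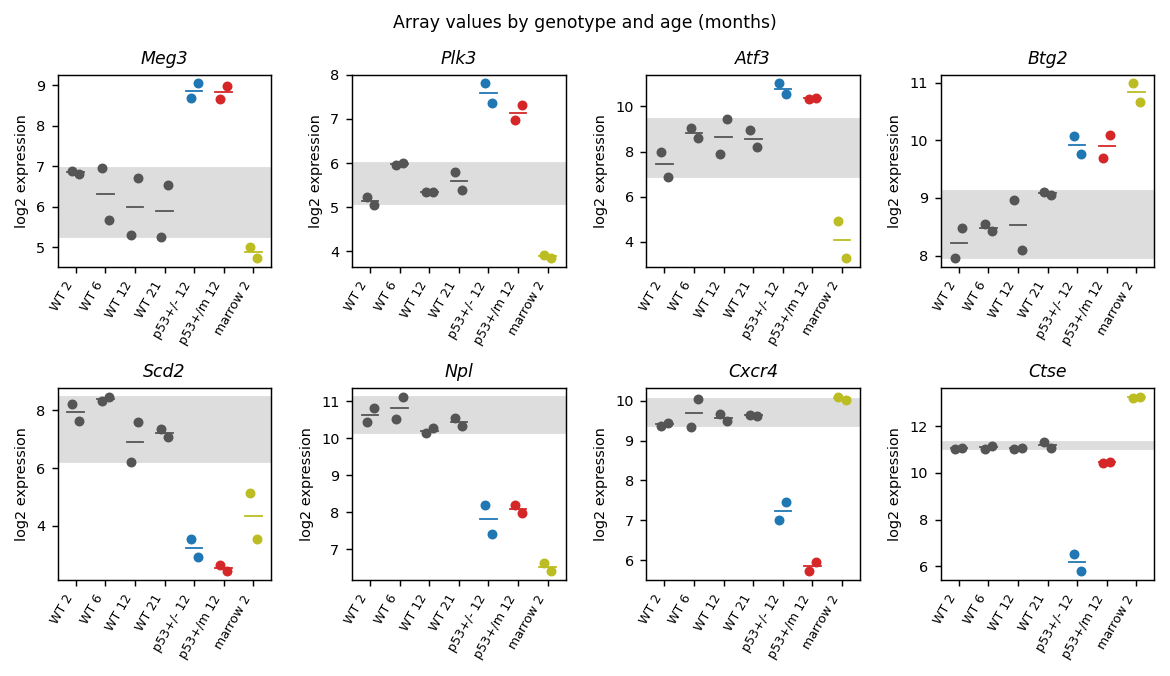
Log2 expression on each array of 4 genes above (Meg3, Plk3, Atf3, Btg2) and 4 below (Scd2, Npl, Cxcr4, Ctse) the WT HSC range, by genotype and age in months, with WBM at the right. Points are arrays, short lines the mean of 2 arrays and the grey band the range of the 8 WT HSC arrays; no mutant point enters the band, and in Ctse the 2 mutants lie far apart.

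The largest separation of all was downward, in Scd2, a stearoyl-CoA desaturase that makes monounsaturated fatty acids. On the probe set chosen it lay at 6.20 to 8.48 in WT HSC (median 7.61), at 3.53 and 2.93 in p53+/- and at 2.66 and 2.43 in p53+/m, that is 26.5-fold lower in the mutants, where it was below log2 5. A brighter Scd2 probe set, at a WT mean of 12.6, differed by 0.02 between mutant and WT means, so the difference was seen on 1 of the 2 bright probe sets of the gene and the gene's level as a whole cannot be given from this array. Npl, a lyase that breaks down sialic acid, lay at 10.14 to 11.13 in WT, at 8.21 and 7.42 in p53+/- and at 8.19 and 7.97 in p53+/m, 5.98-fold lower. In neither gene did the 2 mutants stand apart by more than the spread among the WT arrays.

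Cxcr4 lay at 9.35 to 10.04 on the WT arrays (median 9.55), at 7.02 and 7.45 in p53+/- and at 5.73 and 5.97 in p53+/m. All 4 mutant arrays were lower by at least 1.91, both p53+/m arrays were below both p53+/- arrays, and the mutants together were 8.22-fold lower than WT. WBM, at 10.10 and 10.01, was near the WT HSC level. Arrb2, beta-arrestin 2, which takes Cxcr4 and other receptors off the cell surface, was also below the range, at 6.47 to 7.26 against 7.77 to 9.07, and so was Slc9a3r1, a scaffold for membrane proteins, at 5.76 to 6.32 against 7.15 to 8.89.

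Several genes below the range serve respiration and protein synthesis in mitochondria. They were the complex I subunits Ndufa5 (2.31-fold lower), Ndufb3 (2.56-fold) and Ndufc2 (1.85-fold), the cytochrome c oxidase subunit Cox5a (1.76-fold) and the copper chaperone of that oxidase, Cox17 (2.27-fold). Sod2, the superoxide dismutase of the mitochondrial matrix, was 1.64-fold lower, with mutants at 10.61 to 10.87 and WT at 11.26 to 11.82. The mitochondrial ribosomal proteins Mrps33, Mrpl51 and Mrpl17 were 2.15-fold, 2.00-fold and 2.23-fold lower. Ndufa5 serves as an example of the spread, with 9.94 to 10.90 in WT, 9.11 and 8.85 in p53+/- and 9.34 and 9.22 in p53+/m. Part of this set depends on the normalization. With quantile normalization the gap was under 0.3 for Ndufb3 (0.20), Cox17 (0.15), Mrpl51 (0.27) and Mrpl17 (0.17). With median centring it was under 0.3 for Sod2 (0.29). The other genes of this set kept a gap of 0.3 or more in both.

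A further set below the range acts in the cytoskeleton, the cell cycle or on proteins and RNA. Tbca, which folds tubulin, was 2.51-fold lower (9.16 to 9.59 against 10.37 to 11.10), Cks1b, a small partner of cyclin-dependent kinases, 2.80-fold and Anln, the cytokinesis protein anillin, 2.01-fold. Eny2, a subunit of the SAGA and TREX-2 complexes, was 2.13-fold lower, Eif2s2, the beta subunit of the initiation factor eIF2, 1.66-fold, Cnot4, a ubiquitin ligase linked to CCR4-NOT, 2.28-fold, and the zinc finger gene Zfp51 2.40-fold. On a brighter Eif2s2 probe set the difference was 0.23, with overlap. Further bright Cnot4 probe sets differed by -0.89, -0.07 and -0.02, all with overlap. Lztfl1 and Tmem216, both of the primary cilium, were 2.43-fold and 2.25-fold lower.

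Of the metabolic genes below the range, Ptgr1, which reduces prostaglandins, was 3.86-fold lower, Uap1, which makes UDP-N-acetylglucosamine, 2.19-fold and Gstm5, a glutathione transferase, 1.70-fold. On a brighter Uap1 probe set the difference was -0.15, with overlap. Afp, alpha-fetoprotein, was 5.13-fold lower but varied widely among WT arrays (5.66 to 8.14). The mutant means of Afp (4.84), Ptgr1 (4.99) and Tmem216 (4.94) were below log2 5. With Scd2 these were the 4 members with so low a mutant mean, and their fold values are less certain. Clcc1, a chloride channel protein, and Dram2, a membrane protein of autophagy, were 2.35-fold and 2.18-fold lower. Wwc2, Tceal1, Commd1, Ccdc34, Atraid and 0610009B22Rik completed the list, at 2.78-fold, 3.81-fold, 2.23-fold, 2.68-fold, 2.21-fold and 2.44-fold lower.

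Plac8, Cd52, a surface glycoprotein of leukocytes, and Ctse, the protease cathepsin E, were brighter in WBM than in HSC. Plac8 lay at 8.03 to 10.47 in WT HSC, at 5.81 and 7.69 in p53+/- and at 6.18 and 6.53 in p53+/m, and at a mean of 12.63 in WBM. Cd52 lay at 6.23 to 8.36 in WT HSC, at 5.52 to 5.81 in the mutants and at 12.10 in WBM. Beside them, the summed neutrophil markers, of which 13 were measured, spanned 9.24 to 12.4 in WT HSC, 8.75 to 9.32 in p53+/-, 9.10 to 10.6 in p53+/m and 17.6 to 17.7 in WBM. Of those 13 markers, 7 had a mean below log2 5 in WT HSC, 12 in p53+/-, 8 in p53+/m and 0 in WBM, and their part in these 3 genes was not tested.

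Genes with more than 1 probe set give a further reading of the same RNA, which is not independent of the rule. A further bright probe set was present for 22 of the 54 genes, 35 probe sets in all, on the same arrays. Of these, 28 differed between mutants and WT in the same direction, 22 of them by 0.3 or more (18 genes). In 10 of the 35 all 4 mutant arrays again lay outside the WT range on the same side. Beside that, 271 of all 8012 bright probe sets had any gap in either direction, those of the members included. In 10 probe sets the difference was under 0.3, among them that of Scd2, 1 of 2 for Wwc2, 1 of 2 for Uap1 and that of Mylk. The rest were of Tgoln1 (0.10), Cnot4 (-0.07 and -0.02) and Eif2s2 (0.23, 0.17 and -0.21). 3 differed by 0.3 or more the other way, 1 of Eny2, which lay above the range by 0.30, and 2 of Eif2s2 (1.08 and 0.36). No further bright probe set of Eif2s2 was lower in the mutants by 0.3 or more. The second Btg2 probe set was higher in the mutants by 2.02, but both p53+/- arrays lay within the WT range of 5.18 to 8.75.

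**Figure D3:**
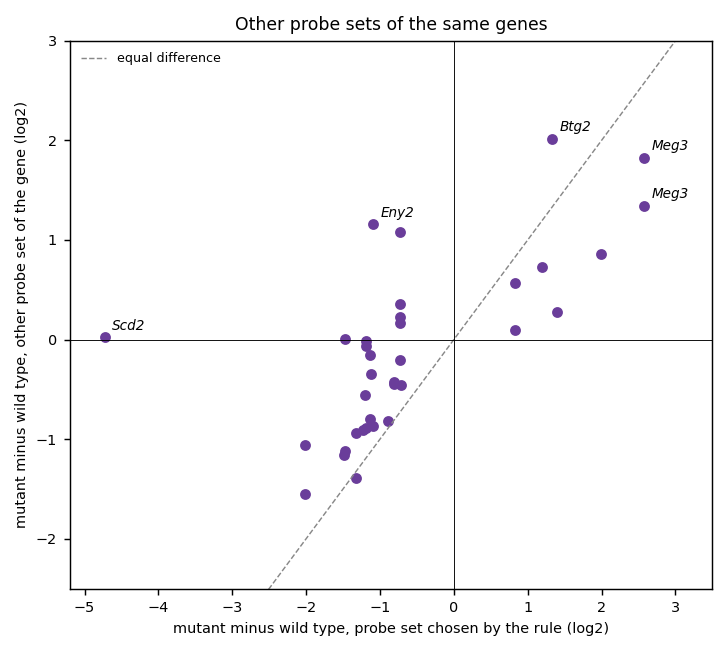
Difference between the mutant and WT means (log2) on the 35 further bright probe sets of 22 genes (vertical axis) against the probe set chosen by the rule (horizontal axis). Most points share the sign of the chosen probe set but lie nearer to 0, Scd2 lies at 0.02, and points of Eny2 and Eif2s2 lie on the other side of 0.

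The difference between the 2 mutants was not set by the rule, and it was tested with limma over all 12 HSC arrays and 22626 probe sets (Benjamini-Hochberg adjusted p under 0.05 and 2-fold). Of all probe sets, 0.084% were higher and 0.11% lower in p53+/m than in p53+/-. Among the 54 genes only Ctse passed, higher in p53+/m by 4.27 (SE 0.22, n = 2 arrays each, adjusted p = 0.00258). It lay at 11.01 to 11.33 on the WT HSC arrays (median 11.06), at 6.55 and 5.80 in p53+/- and at 10.41 and 10.48 in p53+/m. Both mutants were thus below WT, p53+/m by 0.65 and p53+/- by 4.92, and the 8 WT arrays spread over 0.32. With the spread taken from the 6 arrays of 12 mo or the 4 mutant arrays alone, no probe set on the array passed the limma test. Over its 10 alternatives the adjusted p of Ctse ranged from 0.000366 to 0.206.

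No other member passed. Cxcr4 was lower in p53+/m by 1.39 (SE 0.24, adjusted p = 0.0820), and Slc19a2 by 0.59 (SE 0.16, adjusted p = 0.232). Together with Ctse and Eny2 these were the 4 genes whose 2 mutant means differed by more than the WT range. At an unadjusted p under 0.05 with 2-fold, Ctse was higher and Cxcr4 lower (1.85% each, beside 1.7% and 1.77% of all probe sets). Over all 54 genes neither mutant was the farther from WT throughout. The p53+/- mean was farther out in 11 of the 16 genes above the range and in 18 of the 38 below it, and the median of p53+/m minus p53+/- was -0.13 and -0.02, beside -0.05 for all bright probe sets.

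**Figure D4:**
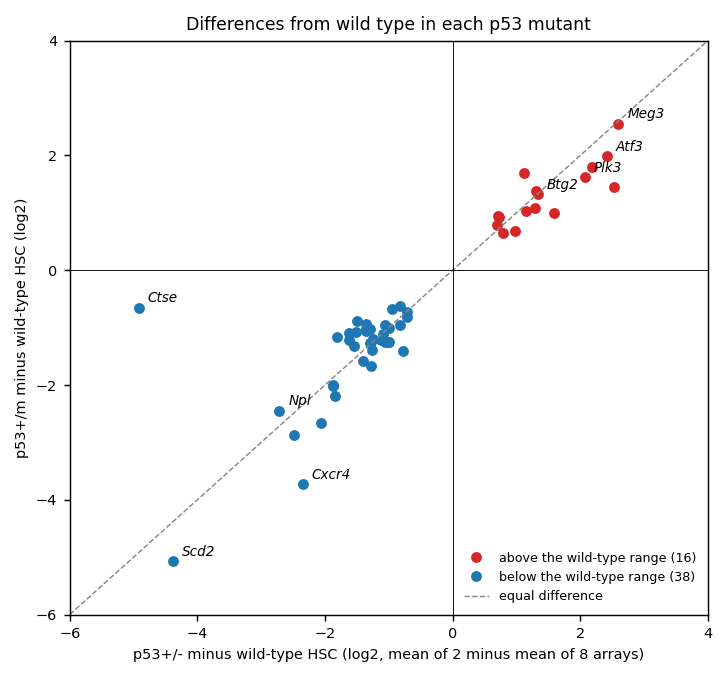
Difference of the p53+/m mean (vertical axis) and of the p53+/- mean (horizontal axis) from the mean of the 8 WT HSC arrays, in log2 units, for the 54 genes, with the line of equal difference dashed. The rule puts every point in the upper right or lower left quadrant; most points lie near the line, Ctse lies far to its left (-4.92 and -0.65) and Cxcr4 below it.

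Of 46 p53 targets measured, 31 had a bright probe set, and 3 of these (9.68%) were members, Plk3, Atf3 and Btg2, all above the range, beside 0.29% of all bright genes. With any gap above 0, 12.9% of the 31 lay above the range, beside 1.57%, and 3.23% below it, beside 3.06%. The gene below was Rps27l, by 0.13 on 1 probe set, with a difference of -1.12. Siva1 (-0.93) and Ccng1 (-0.44, and -1.33 on a less bright probe set) were lower too, with overlap. Across the 31 the median difference was 0.06, with 17 higher and 14 lower in the mutants, beside -0.07 over all 5524 genes. Taken singly, the medians were -0.08 in p53+/- and -0.05 in p53+/m, beside -0.04 and -0.10 over all bright genes. Cdkn1a, the cyclin-dependent kinase inhibitor p21, lay at 8.31 to 10.56 in WT, at 9.87 and 9.84 in p53+/- and at 9.85 and 10.13 in p53+/m, within the WT range. On its brighter probe set Cdkn1a lay at 9.18 to 10.87 in WT, at 11.34 and 10.59 in p53+/- and at 10.85 and 11.31 in p53+/m, so 1 array of each mutant lay above the WT range and the mean difference was 0.62. Mdm2 lay at 8.31 to 8.83 in WT, at 8.37 and 8.60 in p53+/- and at 8.48 and 8.41 in p53+/m. Ddb2, a DNA damage binding protein, was above the range by 0.27 on 1 probe set and overlapped WT on another. Trp53 itself was not analysed here. None of the 46 p53 targets and of 79 measured genes of DNA repair passed the limma test between the 2 mutants, read on 1 probe set each. At an unadjusted p under 0.05, 2 targets were higher and 2 lower in p53+/m, and 6 DNA repair genes higher and 1 lower (4.35% and 4.35%, and 7.59% and 1.27%, beside 5.07% and 5.04% of all genes). The lists of apoptosis and DNA repair, with 31 and 49 bright genes, held no member, beside 0.29% above and 0.688% below of all bright genes.

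Immediate early genes, the first transcripts to appear after a stimulus or cell handling, held 2 of the members, Atf3 and Btg2. That was 8% of its bright genes, beside 0.29% of all bright genes. Of 25 bright genes of this list 22 were higher in the mutants, beside 2368 of all 5524, with median differences of 0.60 and -0.07. As a median over the list relative to the WT mean, the p53+/- arrays lay at 0.65 and 0.33 and the p53+/m arrays at 0.50 and 0.85. The WT arrays lay between -0.51 and 0.55, lowest at 2 mo and highest at 21 mo, so the groups overlapped. In the WT age test 5 of 33 measured immediate early genes rose from 2 to 21 mo by limma and 0 fell (15.2% and 0%, beside 1.45% and 2.03% of all genes). At an unadjusted p under 0.05 it was 16 and 0 (48.5% and 0%, beside 10.2% and 13%).

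The list of oxidative phosphorylation held 4 members (Ndufa5, Ndufb3, Ndufc2 and Cox5a), 5.41% of its bright genes beside 0.688% of all bright genes. Of its 74 bright genes 59 were lower in the mutants, beside 3156 of all 5524, with medians of -0.44 and -0.07. The list's median lay at -0.47 and -0.56 on the p53+/- arrays, at -0.42 and -0.44 on the p53+/m arrays and between -0.32 and 0.39 on the WT arrays, without overlap. In the WT age test by limma 0 of 84 measured genes of this list rose and 2 fell, the latter 2.38% beside 2.03% of all genes. At an unadjusted p under 0.05 it was 2 higher and 26 lower (31%, beside 13% of all genes). The mitochondrial ribosomal proteins held 3 members (4.92%, beside 0.688%), 55 of 61 were lower, and the median was -0.48. Here the mutant arrays (-0.55 to -0.46) lay within the WT span of -0.60 to 0.47 only through its lowest array, 21 mo B. All other WT arrays lay at -0.30 or higher, above every mutant array. In the WT age test 0 of 74 rose and 7 (9.46%) fell by limma, or 0 and 35 (47.3%) at an unadjusted p under 0.05. Of 48 bright cell cycle genes 35 were lower, with a median of -0.32, and 1, Cks1b, was a member (2.08%, beside 0.688%). Cytosolic ribosomal proteins, 43 of them bright, held no member, and 30 were lower. With any gap above 0, however, 11.6% of them lay below the range. The share was 12.2% for oxidative phosphorylation, 14.8% for mitochondrial ribosomal proteins and 3.06% for all bright genes.

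**Figure D5:**
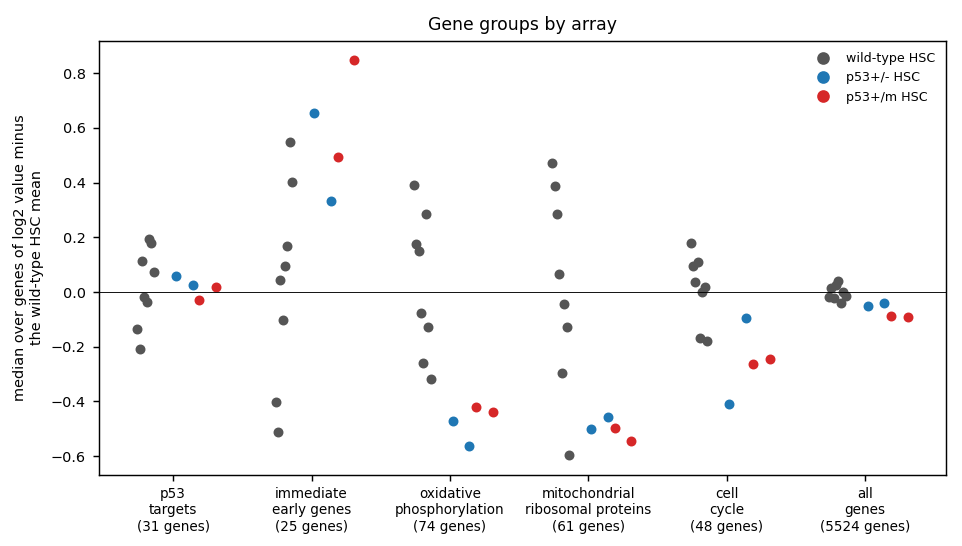
Median over the genes of a list of the log2 value minus the WT HSC mean, 1 point for each HSC array (grey WT, blue p53+/-, red p53+/m), with the number of bright genes below each list. The 4 mutant points lie below all 8 WT points for oxidative phosphorylation, overlap them for the mitochondrial ribosomal and immediate early genes, and lie amid them for p53 targets.

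Age within WT HSC was tested with limma on a quadratic trend over the 8 WT arrays, which the rule reads only through their highest or lowest value. Of all probe sets 1.32% rose and 1.51% fell from 2 to 21 mo. Of the 54 genes 0 rose and 1, Mafg, fell, by 1.04 on the log2 scale (SE 0.15, adjusted p = 0.0331), whereas the mutants lay above the WT range for it. The call for Mafg was lost without any 1 array of 2, 6 or 21 mo, and its adjusted p ranged from 0.0239 to 0.130 over 14 alternatives. At an unadjusted p under 0.05 with 2-fold, 2 members (3.7%) were higher and 3 (5.56%) lower, beside 6.66% and 6.56% of all probe sets. Among these were Slc9a3r1, at 1.48 (SE 0.36, adjusted p = 0.0864), and Arrb2, at -1.07 (SE 0.31, adjusted p = 0.123), which did not pass. The rule favours genes with a narrow WT range, which bears on these counts.

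HSC were compared with WBM at 2 mo by limma over the 10 WT arrays, and WBM arrays had no part in the rule. Of the 54 genes 11 (20.4%) were higher in HSC and 11 (20.4%) lower, beside 24.4% and 13.4% of the bright probe sets and 11% and 9.69% of all. Npl was higher in HSC by 4.10 (SE 0.23, adjusted p = 0.000101), Scd2 by 3.58 (SE 0.64, adjusted p = 0.0104), Atf3 by 3.34 (SE 0.78, adjusted p = 0.0276), Tceal1 by 3.18 and Wwc2 by 2.79. Cd52 was lower in HSC by 4.25 (SE 0.65, adjusted p = 0.00579), Ptgr1 by 2.77, Btg2 by 2.60, Plac8 by 2.35 and Gclm by 2.31. Gclm and Plac8 lost the call without any 1 of the 4 arrays of 2 mo, Atf3 without 3 of them and Ptgr1 without 3, and Scd2 without array A of the 2-mo HSC.

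The mutants did not lie toward WBM as a rule. The WBM mean was on the same side of the WT HSC range as the mutants in 2 of the 16 genes above the range (Btg2 and Gclm) and in 11 of the 38 below it. It was on the other side in 9 and 13 genes and within the range in 5 and 14. Thus Cxcr4 lay lower in the mutants than in either HSC or WBM of WT mice, and Plk3 and Atf3 higher than in both.

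The 54 genes were spread over 17 chromosomes, and 9 of them (16.7%) lay on chromosome 1, which holds 5.72% of the genes placed. In order of start (GRCm38.p6) these were Ndufb3, Cxcr4, Ctse, Dstyk, Btg2, Npl, Slc19a2, Uap1 and Atf3. Cxcr4 lies at chr1:128588199-128592299, Ctse at chr1:131638314-131675507, Btg2 at chr1:134074865-134079155 and Npl at chr1:153503016-153549714. Ptprc, which encodes CD45, lies among them at chr1:138062859-138175756. Within 20 Mb to either side of it, a window chosen after the values were seen, 5 of 74 bright genes (6.76%) were members (Cxcr4, Ctse, Dstyk, Btg2 and Npl), beside 49 of 5446 (0.9%) elsewhere. With any gap above 0, 14.9% of the genes in that window had no overlap with WT, beside 4.5% elsewhere. Within 30 Mb Slc19a2 joined them, at 6 of 93 bright genes (6.45%). Given the CD45.1 WT mice named in the methods, a p53 effect and a strain difference near Ptprc cannot be told apart for these genes. How far such a strain difference would reach is not known from the labels, so the limit is not confined to them.

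On chromosome 11, which holds Trp53 (chr11:69580348-69591873), lay 6 members (11.1%, beside 8.42% of the genes placed), and the nearest, Arrb2, starts 0.84 Mb after its end. The other 5 (Cnot8, 0610009B22Rik, Slc9a3r1, Commd1 and Mafg) lie 11.5 Mb or more away. With back-crossing of at least 4 generations, a p53 effect and a strain difference near Trp53 cannot be told apart for Arrb2 either. Of the 8 bright genes within 1 Mb before Trp53, none a member, 6 were lower in p53+/m than in p53+/-, with a median of -0.72, and in 4 both p53+/m arrays lay below the WT range. Over the 19 genes within 1 Mb after Trp53 the median of p53+/m minus p53+/- was -0.02, and in 1 both p53+/m arrays lay below the WT range. Over all bright probe sets the median of that difference was -0.05. By the rule with p53+/m alone, 289 genes lay below the range. The share of all bright genes with both p53+/m arrays below it at any gap was not computed. The counts of 4 and 1 thus have no background beside them, and their cause was not tested. The gene span of the members was 14.7 kb (above) and 15.2 kb (below) at the median, beside 22.4 kb over all bright genes.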

How the data were processed

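RNA of the 14 samples was amplified by in vitro transcription and hybridized to Affymetrix MOE430A arrays. MAS 5.0 gave the image files and GC-RMA the expression values, which the authors deposited on the log2 scale. GC-RMA corrects each probe's background by its GC content and normalizes between arrays. Its version, and whether 1 run held the 14 arrays, is not given in the sources used here. The deposited log2 values were used without change, for 22626 probe sets and 64 controls. The probe table names 20380 probe sets singly, 691 by several symbols and 1555 not at all. Array number limits the precision, with 2 arrays in each of 7 groups.

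Groups follow the sample titles, since 1 label field gives 2 mo for every sample. Members and lists were chosen with earlier results of these data known. Named genes were the 15 with the largest gap in each direction, up to 4 per list, those near the limit and those called by a test, and the remaining members were named after their values were seen. List medians used the probe set with the highest WT mean of each gene.

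Tests were limma 3.58.1 (R 4.3.3, lmFit and eBayes, two-sided, Benjamini-Hochberg over 22626 probe sets), tested on simulated data. They compared p53+/m with p53+/- (12 HSC arrays), 21 with 2 mo (8 WT arrays) and HSC with WBM (10 WT arrays). Each HSC array had its own pool of mice by the methods, and none is stated for WBM; the p-values measure the spread between such pools and not between mice. Alternatives varied the gap, the level limit, normalization, the probe set, the arrays of the range, the filter (log2 5 or above on 2 arrays), the model and the replicate block, and left out each array. The p53 half-site was searched by name on both strands.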

Additional observations from a re-analysis of the deposited data

Results flagged for a closer look

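In 1 of the 54 genes, Ctse, the 2 mutants departed from WT HSC by different amounts, by the limma test of the difference itself: p53+/m was 4.27 log2 units higher than p53+/- (adjusted p = 0.00258). Both mutants lay below the 8 WT arrays, and both p53+/m arrays above both p53+/- arrays. The groups hold 2 arrays each, too few to look for single outlying arrays.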

How the results depend on the processing

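The 54 genes numbered 81 with a gap of 0.2 and 24 with 0.5, 62 and 47 with a mean of 5 or 7, 44 with quantile normalization (38 shared), 51 with median centring (49 shared) and 42 with the probe set of the highest WT mean. Only the 2 WT arrays of 12 mo as the range gave 467, p53+/m alone 436 and p53+/- alone 256. Leaving out 1 array gave 60 to 118, and without p53+/- B, p53+/- A or p53+/m B the count was 118, 97 and 94. Leaving out both WT arrays of 12 mo, chosen after seeing the data, gave 91. With fewer arrays a gap can only widen, so apart from the level limit these counts could only rise. They do not test whether the members hold. On the probe set of the highest WT mean 3 genes changed direction, with gaps of -0.84 (Scd2), -1.18 (Wwc2) and -0.87 (Eif2s2).

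In the test between the mutants 1 gene was called under 8 of 10 alternatives (1 without any 1 mutant array), and 0 with the 6 arrays of 12 mo or the 4 mutant arrays only, where 0 probe sets passed by limma and the unadjusted p under 0.05 counted 284 higher and 261 lower, or 423 and 427. With age, 1 gene became 3 with the filter on low values, 0 with group means, 5 without both 12-mo arrays (added after seeing the data) and 0 to 3 without 1 array, 3 being without 12 mo B and 2 without 12 mo A. Against WBM 22 genes became 15 to 19 without 1 array. Letters shared between groups do not mark pairs: over 15 pairs of groups their deviations correlated at -0.31 to 0.16. With them as a replicate block 1, 1 and 21 members were called in the 3 tests, and all probe sets called numbered 5 higher and 11 lower, 136 and 153, and 2311 and 2073, against 19 and 25, 299 and 342, and 2481 and 2192 without the block. The cause of these shifts was not tested.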
